A study of Mus musculus with 18 samples.

Results

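Otx2, Fgf5, Pou3f1, Zic2, Zic5, Lef1, Tcf15 and Sall2 are genes by which formative and primed pluripotency are recognised, and they were chosen by name. All 8 were found among the 25239 genes of the count table, and all 8 were among the 16582 genes that passed the filter on low counts and were tested. RNA-seq counts were available for 18 libraries, 2 in each of 9 conditions, from wild-type E14Tg2a mouse embryonic stem cells and from TET TKO cells of the same line. In the TKO cells, which the study describes as a clone, the open reading frames of Tet1, Tet2 and Tet3 had been excised with CRISPR/Cas9. Cells of both genotypes had been held in 2i/LIF and were turned into epiblast-like cells (EpiLCs, day 0) in N2B27 with Activin A and Fgf. EpiLCs were then grown as floating aggregates in GK15 for 2 or 6 days, either without cytokines or with BMP4, BMP8a, SCF, LIF and EGF, the cytokines used to obtain primordial germ cell-like cells (PGCLCs). The conditions were wild-type and TKO EpiLCs, wild-type aggregates without cytokines at days 2 and 6, wild-type day 6 cultures with cytokines, and TKO aggregates with and without cytokines at days 2 and 6. Wild-type day 2 cultures with cytokines were not analysed here.

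Formative pluripotency is the state that follows naive pluripotency and precedes the primed state of the late epiblast, and EpiLCs are its culture model. Otx2 encodes a homeodomain transcription factor that drives entry into the formative state and restrains entry into the germline. Pou3f1 (Oct6) is a POU-domain factor of the epiblast and early neural tissue, Zic2 and Zic5 are zinc-finger factors, Sall2 is a spalt-family zinc-finger factor, and Tcf15 is a basic helix-loop-helix factor that primes cells for exit from the naive state. Fgf5 encodes a secreted growth factor of the epiblast, and Lef1 is a nuclear effector of Wnt signalling. In the embryo, germ cell precursors lose this epiblast programme while pluripotency genes are retained or regained.

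Because TET enzymes oxidise 5-methylcytosine at CpG dinucleotides, upstream sequence is shown for Fgf5, Lef1 and Otx2, the ligand, the Wnt effector and the homeodomain factor whose levels are followed below. Each run is the 250 bases upstream of a RefSeq transcript start (GRCm38.p6), 5′ to 3′ on the strand of the gene, with CpG dinucleotides in capitals.
Fgf5 (chr5:98253934-98254183, plus strand): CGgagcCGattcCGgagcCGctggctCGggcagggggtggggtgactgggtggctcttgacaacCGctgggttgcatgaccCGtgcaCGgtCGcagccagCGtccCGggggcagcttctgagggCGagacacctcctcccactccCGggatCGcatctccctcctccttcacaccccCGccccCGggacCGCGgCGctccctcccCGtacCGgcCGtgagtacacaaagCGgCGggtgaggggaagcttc
Lef1 (chr3:131110047-131110296, plus strand): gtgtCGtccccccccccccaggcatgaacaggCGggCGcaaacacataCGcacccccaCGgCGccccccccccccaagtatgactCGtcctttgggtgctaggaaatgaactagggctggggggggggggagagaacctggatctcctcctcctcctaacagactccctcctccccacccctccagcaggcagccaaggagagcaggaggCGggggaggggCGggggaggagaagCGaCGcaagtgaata
Otx2 (chr14:48667645-48667894, minus strand): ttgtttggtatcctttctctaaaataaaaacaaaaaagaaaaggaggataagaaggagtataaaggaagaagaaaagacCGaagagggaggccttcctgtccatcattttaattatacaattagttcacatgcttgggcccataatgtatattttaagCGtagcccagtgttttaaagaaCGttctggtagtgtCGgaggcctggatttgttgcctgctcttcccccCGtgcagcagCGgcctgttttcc
The Fgf5 window held 24 CpGs, the Lef1 window 11 and the Otx2 window 6, where the median over 32851 such windows was 6, and 89.3% of all windows held as many CpGs as Fgf5 or fewer. RefSeq windows were matched for 5 of the 8 genes. Otx2 and Lef1 had 4 starts each, of which the most upstream is printed, and their windows held 6 to 14 and 5 to 14 CpGs, so that the printed Otx2 window is the one with the fewest. The data held no methylation measurement, and reads were counted per gene, so that the start in use was not resolved. The bicoid-type letters TAATCC, the TCF/LEF letters CTTTGA and the octamer ATGCAAAT, searched on both strands, were not found in the 3 windows printed. Among the 12 windows of the 5 genes, TAATCC was matched 1 time in an Otx2 window at chr14:48665110-48665359, which lies within annotated exons, and CTTTGA 2 times in a Lef1 window at chr3:131156044-131156293. The letters occurred in 6.25%, 13.8% and 1.6% of all windows.

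In the annotation of the same genome (GRCm38, GENCODE), Otx2 spans chr14:48657677-48673819, Zic5 chr14:122456795-122465677 and Zic2 chr14:122475435-122479852. The Otx2 window printed above lies within this span of Otx2, which begins further upstream than the RefSeq starts that were matched. Zic5 and Zic2 stand head to head on opposite strands with 9757 bases between them. Fgf5 spans chr5:98254184-98277030, Pou3f1 chr4:124656807-124660655, Lef1 chr3:131110471-131224356, Tcf15 chr2:152143561-152149097 and Sall2 chr14:52311172-52328762. Counting ignored strand, and 154 of the 2997 exon bases of Otx2 overlap its antisense transcript Otx2os1, on which a normalised count of at most 12.7 was seen in any library. Another 168 bases of Otx2 are shared with Gm49154 on the same strand. On the opposite strand, Gm43352 overlaps 1208 of the 3506 exon bases of Lef1 and Gm2164 overlaps 330 of the 3849 of Pou3f1, and reads of these genes and of Lef1 and Pou3f1 cannot be told apart there.

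The libraries held 11286050 to 41257861 counted reads. The unit below is the normalised count, the count divided by the DESeq2 size factor of its library. Labels name the replicates only by number, and the study calls them biological. A p-value therefore measures the spread between these libraries and not between clones. With the TKO cells described as a single clone, genotype and clone cannot be told apart in any comparison or interaction of TKO with wild type. Rn45s, a ribosomal RNA gene, took 16.2% to 31.3% of reads in libraries without cytokines and 31.7% to 47.6% in the rest. Counts of Tet1, Tet2 and Tet3 pool all exons, including those outside the excised frames. Tet3 was lower in TKO libraries in each of the 4 matched comparisons, while Tet1 was called lower in EpiLCs and at day 6 with cytokines only and Tet2 on day 6 only, so these counts do not check every TKO library. By a legend of the study, the wild-type day 6 cultures given cytokines had been enriched by a sort on the surface markers SSEA1 and CD61, whereas the labels call them aggregates. If they were sorted, the sort and the named factor cannot be told apart in any comparison with that group.

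The libraries of wild-type aggregates at day 6 without cytokines disagreed on several of the genes. Otx2 was at 10.4 in replicate 1 and 594 in replicate 2, Zic2 at 253 and 2733, and Zic5 at 38.1 and 621. These pairs were 57.0-fold, 10.8-fold and 16.3-fold apart, whereas Pou3f1, Tcf15 and Sall2 differed by at most 1.41-fold there. Across genes with a mean normalised count of at least 50 in that condition, 3.69% differed more than 4-fold between the replicates, against 0% to 0.645% in the other 8 conditions. Neural markers were at a similar summed level in both, 37260 and 34948. Pluripotent markers (Pou5f1, Sox2 and Dnmt3b) summed to 3181 and 3100, and germ cell markers to 92.9 and 96.1. Mesoderm markers were at 106 and 149, endoderm markers at 73.9 and 9.26, and naive pluripotency genes at 423 and 175. All 9 conditions share a single estimate of the spread of each gene, so this pair also widened the errors of Otx2, Zic2 and Zic5 elsewhere. The standard error of the Otx2 difference between EpiLC genotypes was 0.83 on the log2 scale, and 0.24 in a fit from which both libraries were left out. That fit was chosen after the data had been seen, and its values are given beside those of the full fit wherever they change a call.

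**Figure D1:**
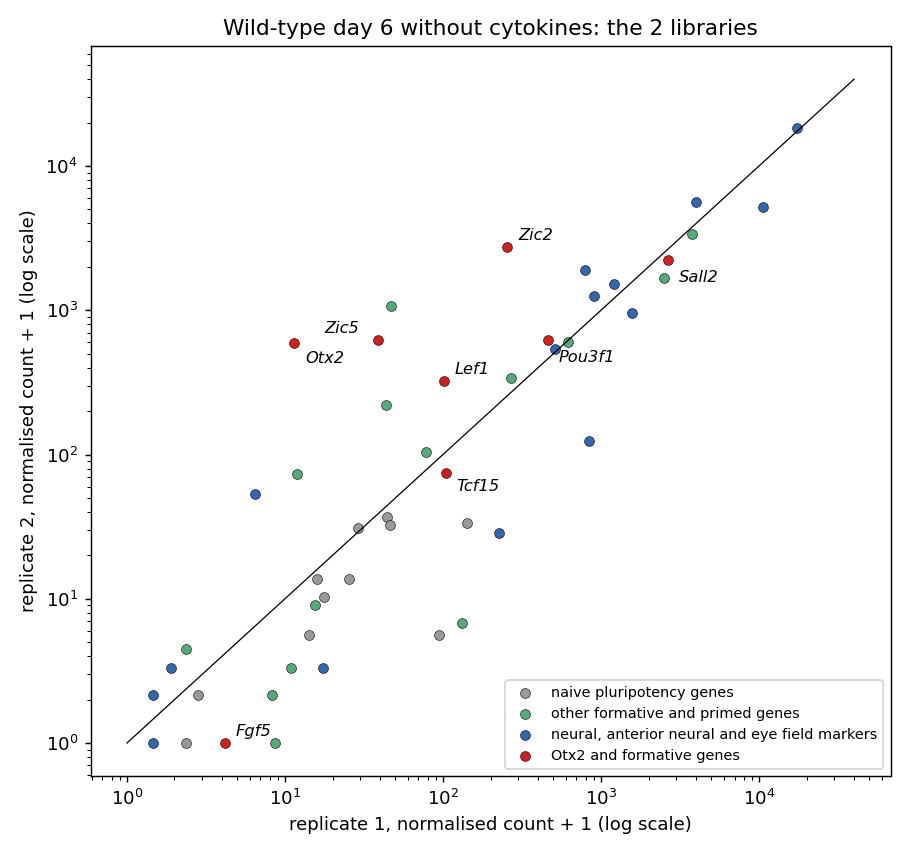
Normalised count + 1 of the listed genes in replicate 1 (x axis, log scale) against replicate 2 (y axis, log scale) of wild-type aggregates at day 6 without cytokines. Each point is a gene, coloured by its list, the line marks equal counts, and Otx2, Zic2 and Zic5 lie far above it while Sall2 and Pou3f1 lie near it.

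Otx2 was highest in EpiLCs, at 1158 and 1718 in wild-type and 1833 and 3579 in TKO libraries. In TKO aggregates without cytokines it was at 1163 and 986 on day 2 and 1026 and 972 on day 6, and with cytokines at 585 and 549 on day 2 and 593 and 662 on day 6. In wild-type cells it was at 757 and 663 on day 2 without cytokines and at 308 and 317 on day 6 with cytokines. The order of the condition means ran from TKO EpiLCs through wild-type EpiLCs, TKO day 2 and day 6 without cytokines, wild-type day 2, TKO day 6 and day 2 with cytokines, to both wild-type day 6 conditions. Wild-type EpiLCs overlapped with TKO day 2 without cytokines, and TKO day 2 with TKO day 6 without cytokines, so that these neighbours could not be ranked.

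Fgf5, the secreted ligand, ranged from 0 to 2697. It was at 1839 and 2354 in wild-type EpiLCs and at 2697 and 1666 in TKO EpiLCs, which overlapped. On day 2 without cytokines it had come down to 522 and 548 in wild-type and 601 and 577 in TKO aggregates. On day 6 without cytokines the genotypes parted, with 7 reads in a wild-type library and 0 in the other (normalised counts of 3.17 and 0), against 323 and 317 in TKO aggregates. With cytokines it was at 41.7 and 18.7 in wild-type cells at day 6, and in TKO aggregates at 308 and 65.8 on day 2 and 10.1 and 16.1 on day 6.

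Lef1 followed a similar course without reaching 0. EpiLCs held 2641 and 1945 in wild type and 2086 and 2743 in TKO. Aggregates without cytokines held 947 and 890 (wild type) or 617 and 590 (TKO) on day 2, and 101 and 321 (wild type) or 366 and 517 (TKO) on day 6. With cytokines, wild-type day 6 cells held 489 and 322, above both TKO conditions, which held 263 and 133 on day 2 and 60.5 and 44.8 on day 6.

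Pou3f1 was highest in wild-type EpiLCs, at 7231 and 5424, and was at 2953 and 2188 in TKO EpiLCs. Without cytokines, wild-type aggregates held 2023 and 2013 on day 2 and 462 and 619 on day 6, while TKO aggregates held 340 and 576, then 226 and 245. With cytokines it was at 40.3 and 41.8 in wild-type cells at day 6 and in TKO aggregates at 235 and 117 on day 2 and 68.9 and 65.4 on day 6. Wild-type libraries were thus above TKO libraries in EpiLCs and on both days without cytokines, and below them on day 6 with cytokines.

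Zic2 was higher in EpiLCs and in aggregates without cytokines than in cultures with the PGCLC cytokines. The exception was wild-type day 6 replicate 1 without cytokines, at 253. It was at 3433 and 3767 in wild-type and 2070 and 2818 in TKO EpiLCs, at 3599 and 3481 in wild-type and 2962 and 3124 in TKO aggregates on day 2, and at 2490 and 2508 in TKO aggregates on day 6. With cytokines it was at 875 and 896 in wild-type day 6 cells, and in TKO aggregates at 959 and 1231 on day 2 and 1327 and 1313 on day 6. Its neighbour Zic5 was at 924 and 834 in wild-type EpiLCs and 584 and 619 in TKO EpiLCs. The lowest libraries of Zic5 other than wild-type replicate 1 at day 6 without cytokines were the wild-type day 6 libraries with cytokines, at 179 in both, and TKO libraries with cytokines held 225 to 383. Zic2 and Zic5 reads kept a ratio of 3.46 to 6.92 in all 18 libraries, with a median of 4.74, including the wild-type day 6 pair in which both genes differed so widely.

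Tcf15 had a different profile. It was at 771 and 359 in wild-type and 824 and 2070 in TKO EpiLCs, and it stood between 384 and 956 in all 8 TKO aggregate libraries. In wild-type aggregates without cytokines it was at 21.4 and 13.2 on day 2 and at 103 and 73.0 on day 6, the 4 lowest libraries. Wild-type day 6 cells with cytokines held 565 and 385, within the range of the TKO aggregates.

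Sall2 was at 1900 and 2767 in wild-type and 3053 and 2103 in TKO EpiLCs. In wild-type aggregates without cytokines it stayed high, at 3977 and 3358 on day 2 and 2639 and 2219 on day 6, whereas wild-type day 6 cells with cytokines held only 41.0 and 63.1. TKO aggregates were between, at 1381 and 1096 on day 2 and 956 and 847 on day 6 without cytokines, and at 645 and 484, then 491 and 294, with cytokines. Per kilobase of exon, Pou3f1 (1644) and Zic2 (1475) were the highest of the 8 genes in wild-type EpiLCs, and Zic5 (184) the lowest.

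**Figure D2:**
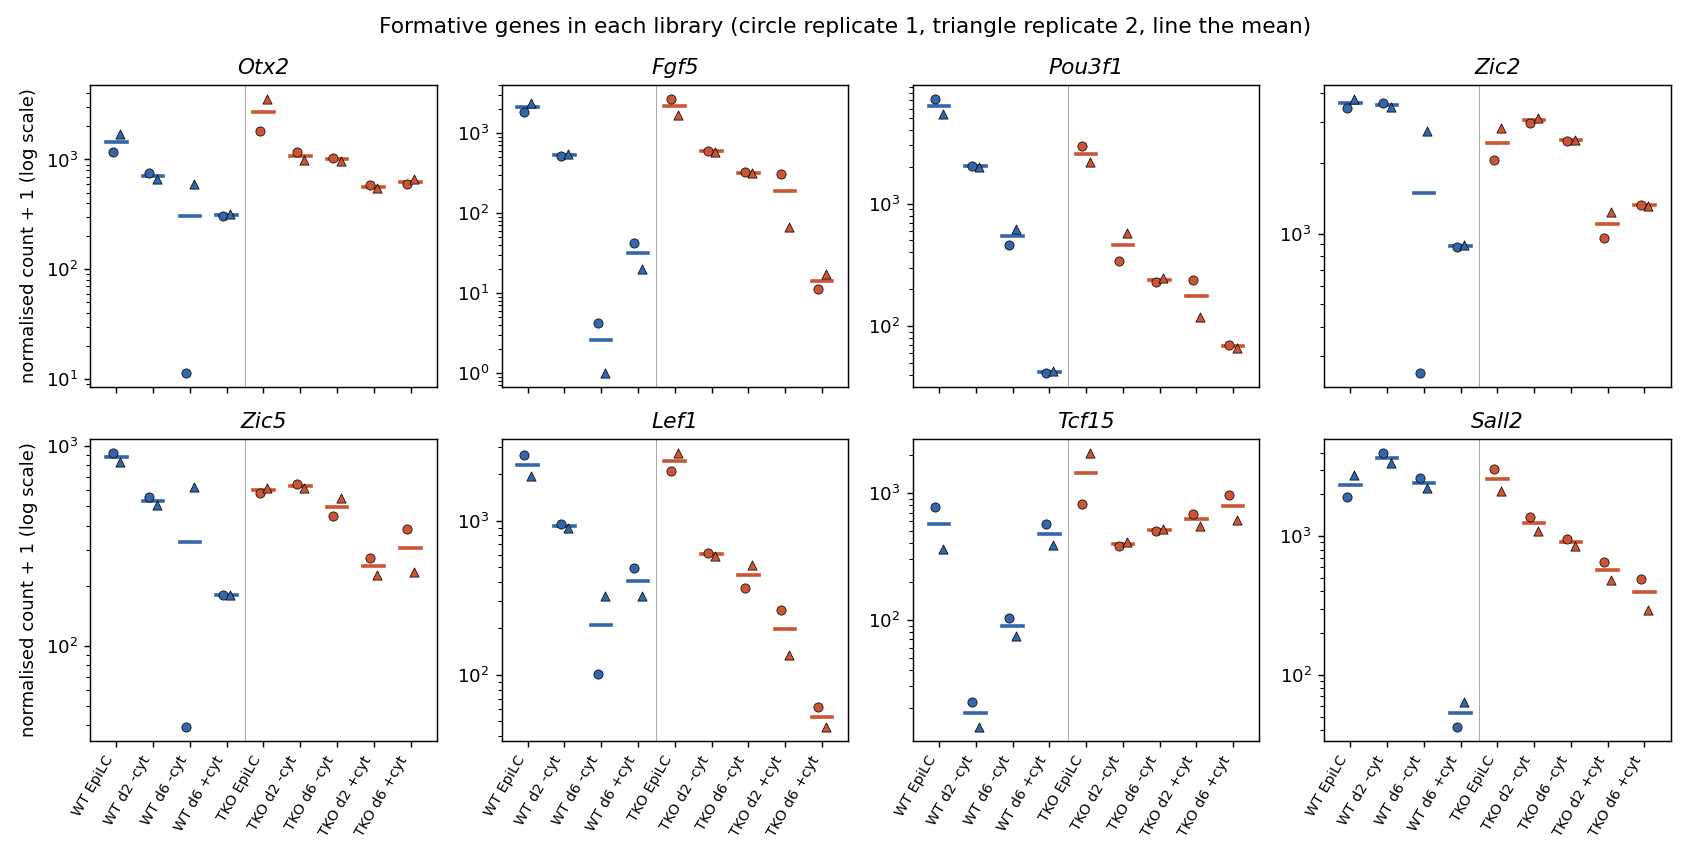
Normalised count + 1 (y axis, log scale) of each gene in the 18 libraries, by condition (x axis; d2 and d6, days 2 and 6; -cyt and +cyt, without and with cytokines). Wild-type libraries are blue and TKO libraries red, circles are replicate 1, triangles replicate 2 and lines the mean of the pair. Tcf15 in wild-type aggregates without cytokines and Sall2 in wild-type cells with cytokines sit far below the TKO libraries.

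The first comparison set EpiLCs without TET enzymes against wild-type EpiLCs. Here 2 of the 8 genes differed between the genotypes at an adjusted p below 0.05, where 10.8% of all genes tested did (7.57% higher and 3.18% lower in TKO). Pou3f1 was lower in TKO EpiLCs (log2 fold change −1.27 ± 0.28 SE, adjusted p = 0.0101) and Tcf15 higher (1.41 ± 0.40, adjusted p = 0.0343). Both calls depended on single libraries. Leaving out a library leaves a single library in its condition, so that the spread there is taken from the other conditions, here and below. Without wild-type EpiLC replicate 1 or TKO EpiLC replicate 2 the adjusted p of Pou3f1 was 0.101 and 0.0948. Without TKO EpiLC replicate 2 the Tcf15 difference was 0.59 (adjusted p = 0.434), without wild-type EpiLC replicate 2 it was 0.96 (adjusted p = 0.281), and without wild-type EpiLC replicate 1 it was 2.02.

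Fgf5, Lef1 and Sall2 differed by 0.08, 0.11 and 0.17 on the log2 scale, with 95% intervals from −0.88 to 1.04, −0.73 to 0.95 and −0.41 to 0.74, and none passed. Otx2 was 1.91-fold higher in TKO EpiLCs, and both TKO libraries were above both wild-type libraries, but its difference did not pass (0.94 ± 0.83, adjusted p = 0.513) and was 0.37 without TKO EpiLC replicate 2 and 1.35 without TKO EpiLC replicate 1. In the fit without the wild-type day 6 pair, which called 18.2% of genes here, it did (0.94 ± 0.24, adjusted p = 0.0135), and Zic2 was then called lower (−0.53 ± 0.16, adjusted p = 0.0293). The libraries of the genotypes did not overlap for 5 of the 8 genes, nor for 56.4% of all genes. Of 14 other formative and primed epiblast genes, 1 was called higher and 4 lower in TKO EpiLCs. Pluripotent markers summed to 37362 and 37712 in TKO and 62524 and 66000 in wild-type EpiLCs, with 1 of 3 called higher and 1 lower. Their median log2 fold change was 0.04, and Dnmt3b is both a pluripotent marker here and among the 14 genes above. Mesoderm markers summed to 654 and 775 against 149 and 150 (Eomes was called higher, of 6 tested), and endoderm markers to 91.3 and 143 against 12.2 and 20.9 (Sox17, Gata4 and Gata6 were called higher, of 4). The part of these markers in the differences of the 8 genes was not tested.

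From EpiLCs to day 2 without cytokines, the genes fell unequally. In wild-type cells 4 of 8 fell (34.4% of all genes were called, 15.7% lower and 18.6% higher): Tcf15 by 4.97 on the log2 scale (± 0.51, adjusted p = 6.44e-06), Fgf5 by 1.92 (± 0.47, adjusted p = 0.00536), Pou3f1 by 1.60 (± 0.28, adjusted p = 0.000508) and Lef1 by 1.27 (± 0.40, adjusted p = 0.0235). Scaling by library size alone gave −0.67 for Lef1 and ended its call (adjusted p = 0.169), as did leaving out wild-type EpiLC replicate 1 or either day 2 library (adjusted p of 0.0952 to 0.143). Sall2 was at 0.70 ± 0.27 (adjusted p = 0.0595), and Zic2 at 0.02 ± 0.59. In the fit without the wild-type day 6 pair 7 of 8 genes were called (42.2% of all genes), with Otx2 (−0.97 ± 0.24, adjusted p = 0.00431) and Zic5 (−0.68 ± 0.20, adjusted p = 0.0118) lower and Sall2 higher (adjusted p = 0.0356).

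In TKO cells the same step went with lower levels of 5 of 8 genes (18.7% of all genes called, 8.52% lower and 10.1% higher). Pou3f1 fell by 2.50 (± 0.29, adjusted p = 7.6e-05), Lef1 by 2.01 (± 0.41, adjusted p = 0.00455), Fgf5 by 1.90 (± 0.47, adjusted p = 0.0131), Tcf15 by 1.89 (± 0.40, adjusted p = 0.00596) and Sall2 by 1.07 (± 0.27, adjusted p = 0.0157). Of these, only Pou3f1 passed whichever of the 4 libraries was left out. Lef1 lost its call without day 2 replicate 2 (adjusted p = 0.0508), Fgf5 and Sall2 without EpiLC replicate 1 or either day 2 library, and Tcf15 without EpiLC replicate 2 (−1.07, adjusted p = 0.0931) or either day 2 library. Scaling by library size alone also ended the Sall2 call (−0.57, adjusted p = 0.173). Otx2 fell by 1.34 (± 0.24, adjusted p = 0.000969) in the fit without the wild-type day 6 pair, which called 29.1% of genes, but not in the full fit (± 0.84, adjusted p = 0.275).

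The change from EpiLCs to day 2 differed between the genotypes for 2 of 8 genes, where 12.3% of all genes did (6.08% higher and 6.19% lower). Tcf15 fell less in TKO than in wild-type cells, by 3.09 ± 0.64 (adjusted p = 0.00539), and Sall2 was called lower in TKO relative to wild type by 1.76 ± 0.39 (adjusted p = 0.00777). For Fgf5 the difference was 0.02, with a 95% interval from −1.35 to 1.396. The calls of Tcf15 and Sall2 held whichever of the 8 libraries was left out and in the fit without the wild-type day 6 pair, which called no other of the 8 genes here and 18.5% of all genes. On day 2 itself, 3 of 8 genes differed between the genotypes (32.8% of all genes, 18% higher and 14.8% lower in TKO): Tcf15 was 22.5-fold higher in TKO aggregates (log2 4.49 ± 0.51, adjusted p = 1.27e-05), Pou3f1 4.52-fold lower (adjusted p = 5.1e-05) and Sall2 3.02-fold lower (adjusted p = 0.000509). The fit without the wild-type day 6 pair called the same 3 and 41.2% of all genes. Neural markers summed to 4034 and 5209 in wild-type and 1405 and 1781 in TKO aggregates on that day, and germ cell markers to at most 98.5 and at least 2769. Anterior neural and eye field markers summed to 106 and 556 in wild-type and 128 and 211 in TKO aggregates (1 of 7 called higher and 1 lower in TKO). Mesoderm markers summed to 236 and 295 in wild-type and 623 and 692 in TKO aggregates, and endoderm markers to 58.3 and 76.0 in wild-type and 161 and 202 in TKO aggregates. The part of these marker levels in the differences was not tested, and in bulk libraries fewer cells of a type and less RNA per cell cannot be told apart.

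**Figure D3:**
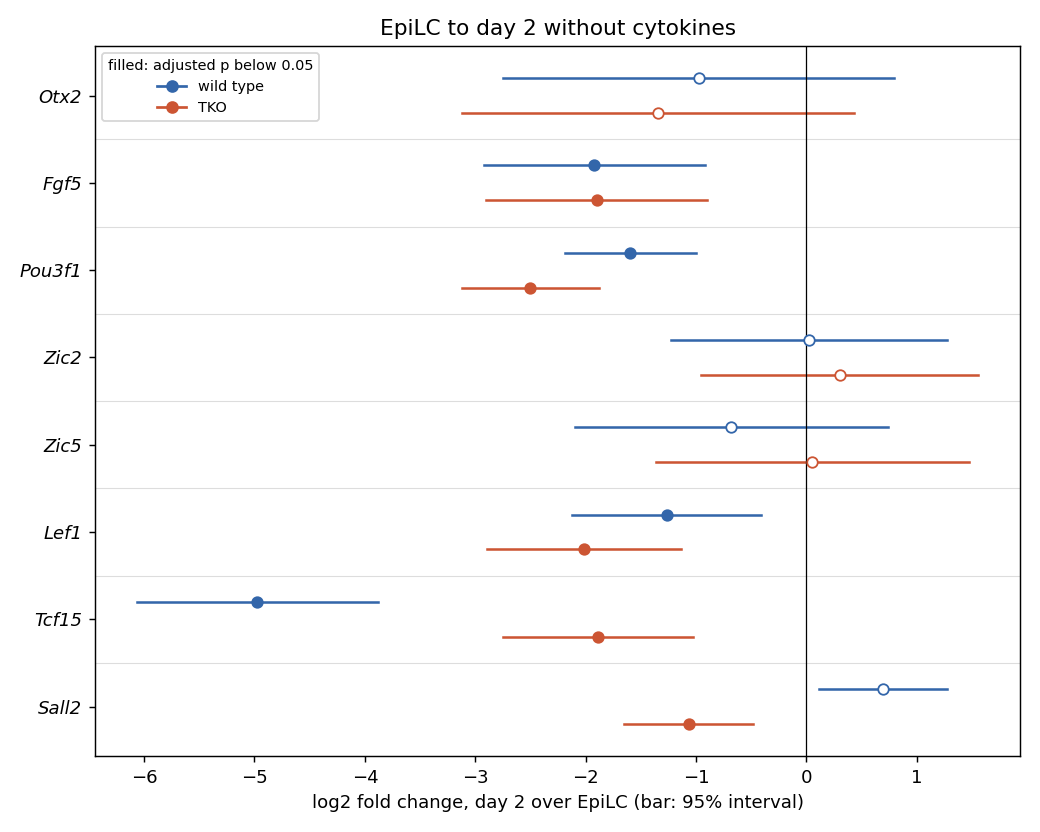
Log2 fold change from EpiLCs to day 2 without cytokines (x axis) for each gene (y axis) in wild-type (blue) and TKO cells (red), from the fit of all 18 libraries. Bars are 95% intervals and filled points have an adjusted p below 0.05. The Tcf15 intervals of the genotypes do not meet.

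By day 6 without cytokines, 5 of 8 genes were lower in wild-type aggregates than in wild-type EpiLCs (60.7% of all genes were called, 29% lower and 31.7% higher). Pou3f1 fell by 3.55 (± 0.30, adjusted p = 1.42e-07), Lef1 by 3.47 (± 0.44, adjusted p = 7.27e-06) and Tcf15 by 2.64 (± 0.43, adjusted p = 7.7e-05). Fgf5 fell by 9.81 (± 0.78, adjusted p = 7.28e-08), a fitted value that rests on 7 reads in total and is no bound, and that was −14.0 without replicate 1 of day 6, which held those reads. Otx2 fell by 2.30 (± 0.88, adjusted p = 0.0329), with −1.28 when replicate 1 of day 6 was left out and −7.11 when replicate 2 was. The Otx2 call was lost without wild-type EpiLC replicate 2 (adjusted p = 0.129), with DESeq2 (adjusted p = 0.0527) and with library size scaling (adjusted p = 0.0977). Sall2 was at 0.06 ± 0.27 (adjusted p = 0.873).

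Zic2 and Zic5 could not be placed for wild-type day 6 aggregates. Against EpiLCs their differences were −1.27 (adjusted p = 0.0778) and −1.44 (adjusted p = 0.0791). Without replicate 2 they were −3.84 and −4.53, and without replicate 1 they were −0.39 and −0.49. Lef1 also depended on the pair, at −2.83 without replicate 1 and −4.51 without replicate 2, but it was lower than in EpiLCs either way.

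Between day 2 and day 6 without cytokines, edgeR called 0 of the 8 genes in TKO aggregates (0.476% of all genes were called, 0.422% higher and 0.0543% lower), DESeq2 called 0, and Pou3f1 was the 1 gene with an unadjusted p below 0.05. Otx2 differed by −0.10, with a 95% interval from −1.86 to 1.66, and from −0.61 to 0.41 in the fit without the wild-type pair, which called 0 of the 8 and 1.23% of all genes. Fgf5 was at −0.87 ± 0.47 and Pou3f1 at −0.95 ± 0.29, with adjusted p of 0.665 and 0.23.

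On day 6 without cytokines, 5 of 8 genes differed between the genotypes, where 55.4% of all genes did (28.5% higher and 26.9% lower in TKO). Fgf5 was higher in TKO aggregates (log2 7.12 ± 0.77, adjusted p = 2.23e-06), again against 7 reads in the wild type, and 11.3 without wild-type replicate 1. Tcf15 was 5.80-fold higher (adjusted p = 0.000146) and Lef1 2.18-fold higher (adjusted p = 0.0323), the latter no longer called without wild-type replicate 1 (0.47, adjusted p = 0.257) or TKO replicate 2 (0.86, adjusted p = 0.181), and 2.16 on the log2 scale without wild-type replicate 2. Sall2 was 2.66-fold lower (adjusted p = 0.000541) and Pou3f1 2.26-fold lower (adjusted p = 0.00288). Otx2 was at 1.80 ± 0.87 (adjusted p = 0.091), at 0.76 without wild-type replicate 1 and at 6.59 without replicate 2. Zic2 and Zic5 did not pass in the full fit, and without wild-type replicate 2 they were higher in TKO aggregates by 3.33 and 3.73 on the log2 scale, whereas without wild-type replicate 1 they were at −0.12 (adjusted p = 0.634) and −0.31 (adjusted p = 0.297). The 8 neural markers were all lower in TKO aggregates (summed level 1703 and 2317 against 37260 and 34948), and all 3 pluripotent markers were higher. Anterior neural and eye field markers were mixed, with 3 of 7 called higher and 1 lower in TKO aggregates. They summed to 303 and 324 in TKO against 625 and 757 in wild-type aggregates. Germ cell markers (3032 and 3199 against 92.9 and 96.1, with 4 of 5 called higher), mesoderm markers (554 and 617 against 106 and 149, with 4 of 6 higher) and endoderm markers (275 and 416 against 9.26 and 73.9, with 3 of 4 higher) also differed. Their part in the differences above was not tested.

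**Figure D4:**
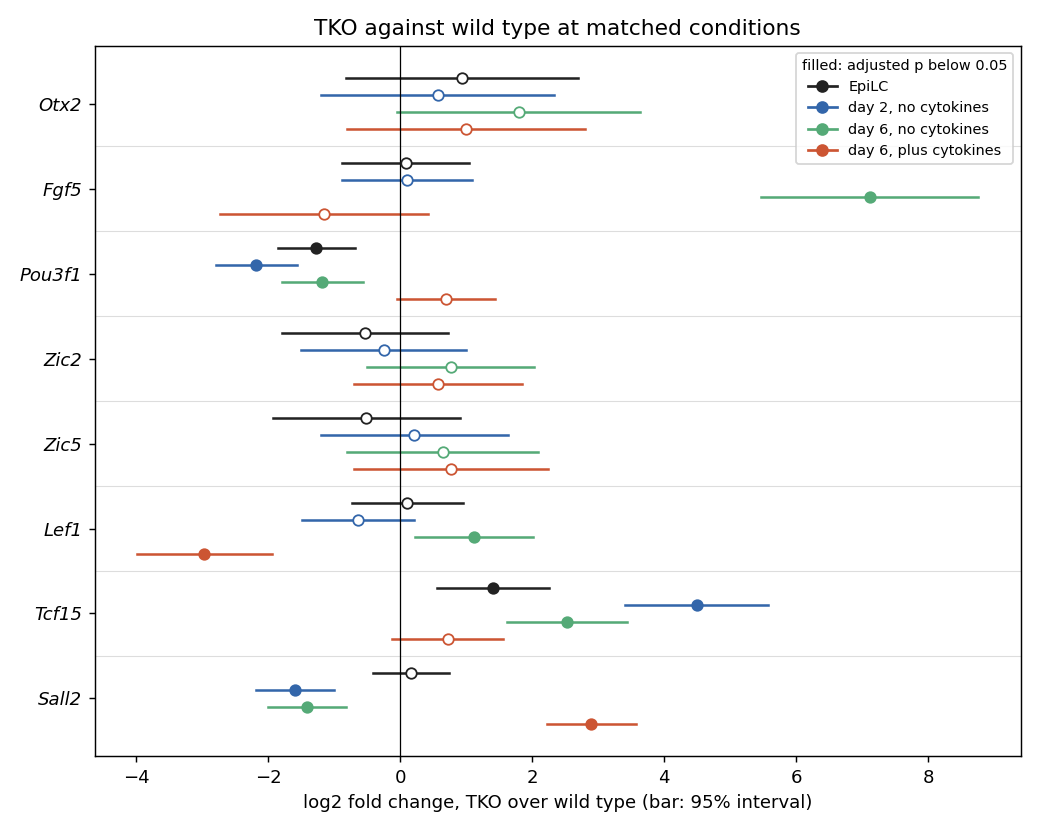
Log2 fold change of TKO over wild type (x axis) for each gene (y axis) at the 4 conditions measured in both genotypes. Bars are 95% intervals from the fit of all 18 libraries and filled points have an adjusted p below 0.05. Sall2 and Lef1 lie on opposite sides of 0 at day 6 with and without cytokines.

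In wild-type cells with cytokines, 6 of 8 genes were lower on day 6 than in EpiLCs (40.6% of all genes called, 18.2% lower and 22.4% higher). Pou3f1 fell by 7.22 (± 0.37, adjusted p = 1.01e-08), Fgf5 by 6.08 (± 0.59, adjusted p = 2.64e-06), Sall2 by 5.44 (± 0.34, adjusted p = 5.59e-08) and Lef1 by 2.45 (± 0.42, adjusted p = 0.000332). Zic5 fell by 2.25 and Zic2 by 1.98, with adjusted p of 0.0184 and 0.0177, and each lost its call when single libraries were left out, Zic5 for any of the 4 and Zic2 for any but wild-type EpiLC replicate 1. Otx2 was 4.48-fold lower without passing (−2.16 ± 0.86, adjusted p = 0.0574), and passed in the fit without the wild-type day 6 pair (−2.17 ± 0.25, adjusted p = 4.59e-06), in which 48.5% of genes were called. Tcf15 was at −0.19 (95% interval −1.02 to 0.65), and its sign turned when wild-type EpiLC replicate 1 (0.43) or day 6 replicate 2 (0.066) was left out and with library size scaling (0.23).

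In TKO cells with cytokines, 4 of 8 genes were already lower on day 2 than in EpiLCs (14.3% of all genes called, 6.39% lower and 7.88% higher): Pou3f1 by 3.86 (± 0.31, adjusted p = 2.51e-06), Lef1 by 3.60 (± 0.45, adjusted p = 7.93e-05), Fgf5 by 3.53 (± 0.51, adjusted p = 0.000315) and Sall2 by 2.19 (± 0.29, adjusted p = 0.000137). Otx2 was 4.77-fold lower, at −2.25 ± 0.86 (adjusted p = 0.0977). The Fgf5 difference was −5.04 without day 2 replicate 1. In the fit without the wild-type day 6 pair, which called 21.4% of genes, all 8 were lower, Otx2 by 2.25 (± 0.25, adjusted p = 1.06e-05), Zic2 by 1.15 (± 0.16, adjusted p = 8.9e-05), Zic5 by 1.26 (± 0.21, adjusted p = 0.000393) and Tcf15 by 1.22 (± 0.37, adjusted p = 0.0269). In the full fit Tcf15 was at −1.22 (adjusted p = 0.0507). It passed with DESeq2 (adjusted p = 0.0218), and was at −1.75 without TKO EpiLC replicate 1 and at −0.40 without TKO EpiLC replicate 2.

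From day 2 to day 6 with cytokines, 3 of 8 genes fell further in TKO cells (6% of all genes called, 1.72% lower and 4.28% higher), Fgf5 by 3.78 (± 0.67, adjusted p = 0.0035), Lef1 by 1.93 (± 0.48, adjusted p = 0.029) and Pou3f1 by 1.39 (± 0.33, adjusted p = 0.0217). None of these passed without day 2 replicate 1, in which all 3 genes were higher than in replicate 2, and the Fgf5 difference was then −2.28. Mesoderm markers summed to 1315 in day 2 replicate 1 and to 357 in replicate 2, and their part in these differences was not tested. Lef1 and Pou3f1 also lost their calls without either day 6 library (adjusted p of 0.0891 to 0.214). Otx2 was at 0.15, with 95% limits of −1.64 and 1.95 in the full fit and of −0.37 and 0.68 in the fit without the wild-type day 6 pair, which called the same 3 genes and 12% of all genes.

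The next comparison set cultures with cytokines against those without. In wild-type cells on day 6, 5 of 8 genes differed (58.2% of all genes called, 29.6% higher and 28.6% lower), with Sall2 lower by 5.50 (± 0.34, adjusted p = 5.18e-09) and Pou3f1 lower by 3.67 (± 0.33, adjusted p = 1.95e-07), and with Fgf5 (3.73 ± 0.88, adjusted p = 0.00203), Tcf15 (2.45 ± 0.42, adjusted p = 0.000152) and Lef1 (1.02 ± 0.41, adjusted p = 0.0453) higher. The Fgf5 value is again measured against 7 reads in a library and 0 in the other, and was 7.94 without the library that held them. The Lef1 call was lost with RLE factors (adjusted p = 0.0536), with library size scaling (0.72, adjusted p = 0.139) and without day 6 replicate 1 of either group, and the difference was 2.06 without replicate 2 of the cultures lacking cytokines. The direction for Otx2 hung on a single library, being −0.89 when replicate 1 without cytokines was left out and 4.94 when replicate 2 was. Zic2 went from −1.59 to 1.86 and Zic5 from −1.75 to 2.28 in the same way. All 8 neural markers were lower (474 and 546 against 34948 and 37260, summed) and all 5 germ cell and all 3 pluripotent markers higher with cytokines. Other lists were mixed, with 1 of 7 anterior neural and eye field markers called higher and 3 lower. Of 6 mesoderm markers tested 2 were higher, and of 4 endoderm markers 2 were higher and 1 lower. The part of these markers in the differences was not tested.

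In TKO aggregates, 4 of 8 genes were lower with cytokines on day 6 (5.61% of all genes called, 3.05% lower and 2.56% higher): Fgf5 by 4.54 (± 0.66, adjusted p = 0.00176), Lef1 by 3.07 (± 0.48, adjusted p = 0.0028), Pou3f1 by 1.80 (± 0.33, adjusted p = 0.00627) and Sall2 by 1.19 (± 0.28, adjusted p = 0.0255). Pou3f1 lost its call without either library with cytokines (adjusted p of 0.0602 and 0.0588), and Sall2 without any library but replicate 1 with cytokines. On day 2, 3 of 8 were lower (4.52% of all genes called, 2.47% lower and 2.05% higher), Lef1 by 1.59 (adjusted p = 0.0451), Pou3f1 by 1.36 (adjusted p = 0.0195) and Sall2 by 1.12 (adjusted p = 0.0354). Lef1 and Sall2 lost their calls whichever of the 4 libraries was left out, and Pou3f1 without replicate 2 of either group (adjusted p of 0.219 and 0.131). In the fit without the wild-type day 6 pair, 7 of 8 were lower on day 2 (14.7% of all genes called), including Otx2 (−0.91 ± 0.25, adjusted p = 0.0237), Fgf5 (−1.63 ± 0.43, adjusted p = 0.0206), Zic2 (−1.46 ± 0.16, adjusted p = 7.41e-05) and Zic5 (−1.31 ± 0.21, adjusted p = 0.00101). In that fit Zic2 (−0.91 ± 0.16, adjusted p = 0.00208) and Zic5 (−0.69 ± 0.21, adjusted p = 0.0376) were also lower on day 6, when 13.6% of genes were called, and Otx2 was at −0.66 (adjusted p = 0.0895).

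The relation to cytokines at day 6 differed between the genotypes for 5 of 8 genes, against 42.9% of all genes (21% higher and 22% lower). Fgf5 (−8.27 ± 1.08, adjusted p = 2.46e-05) and Lef1 (−4.09 ± 0.64, adjusted p = 0.000121) were higher with cytokines in wild-type cells and lower with them in TKO cells. Sall2 (4.31 ± 0.42, adjusted p = 1.48e-06) and Pou3f1 (1.88 ± 0.45, adjusted p = 0.00382) were lower with cytokines in both, by less in TKO cells. Tcf15 was at −1.82 ± 0.57 (adjusted p = 0.0184), a call that was lost without replicate 1 of the wild-type cells or replicate 2 of the TKO cells with cytokines. The Fgf5 value rests on the same 7 wild-type reads and was −12.5 without the library that held them. If wild-type cells with cytokines were sorted, as the legend has it, the interaction and the sort cannot be told apart.

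**Figure D5:**
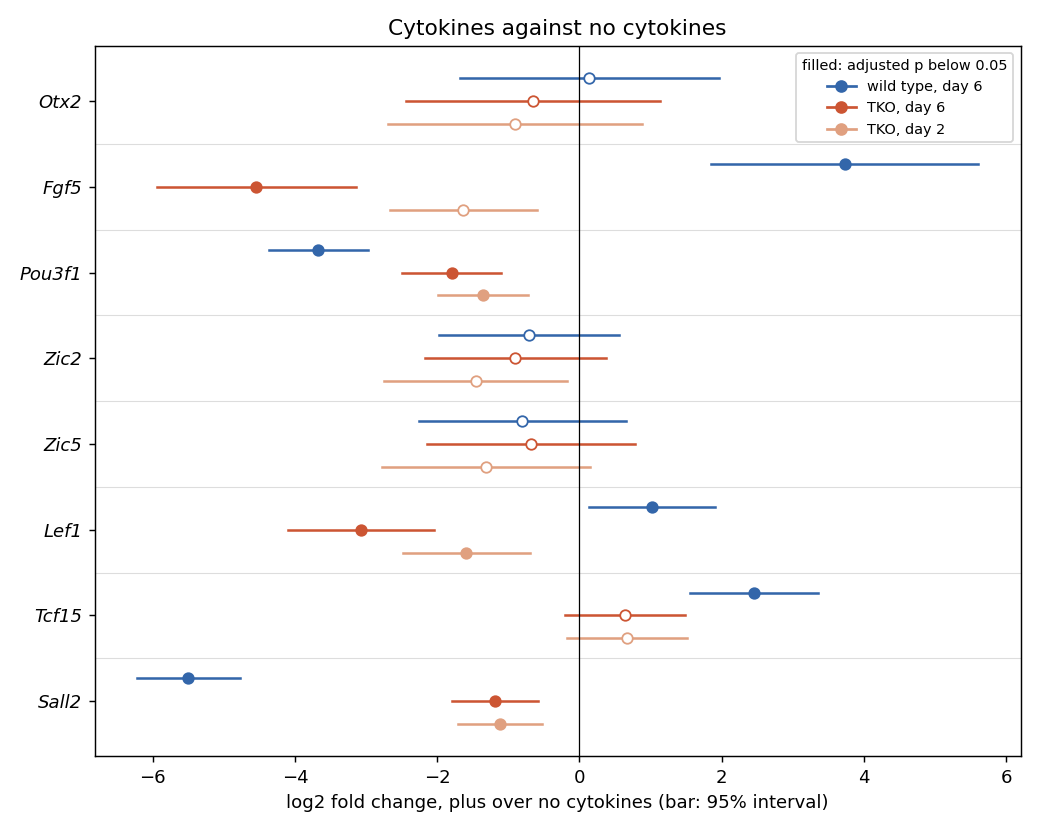
Log2 fold change with over without cytokines (x axis) for each gene (y axis) in wild-type cells at day 6 (blue) and in TKO aggregates at day 6 (red) and day 2 (light red). Bars are 95% intervals from the fit of all 18 libraries and filled points have an adjusted p below 0.05. Fgf5 and Lef1 lie above 0 in wild-type cells and below 0 in TKO aggregates.

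With cytokines on day 6, 2 of 8 genes differed between TKO and wild-type cells (18.9% of all genes called, 11.3% higher and 7.53% lower in TKO). Sall2 was 7.44-fold higher in TKO cells (log2 2.90 ± 0.32, adjusted p = 3.1e-05) and Lef1 7.82-fold lower (−2.97 ± 0.48, adjusted p = 0.000731), and both held whichever library was left out. Otx2 was 2.00-fold higher, at 593 and 662 against 308 and 317, without passing in the full fit (1.001 ± 0.85, adjusted p = 0.451). It passed in the fit without the wild-type day 6 pair (1.004 ± 0.25, adjusted p = 0.00747), as did Zic2 (0.57 ± 0.16, adjusted p = 0.0143) and Zic5 (0.77 ± 0.21, adjusted p = 0.0126), where 27.4% of all genes were called. Germ cell markers summed to 6666 and 8349 in the wild-type libraries and to 2879 and 3528 in the TKO libraries (4 of 5 called lower in TKO). Pluripotent markers summed to 20489 and 22127 in wild-type and to 24108 and 17010 in TKO libraries (1 of 3 called higher in TKO). Endoderm markers were at 445 and 538 in TKO against 75.1 and 117 in wild-type libraries (3 of 4 called higher), anterior neural and eye field markers at 203 and 242 against 44.5 and 68.9 (2 of 7 higher), and neural markers at 972 and 1797 against 474 and 546 (1 of 8 higher and 1 lower). The part of these marker levels in the differences was not tested.

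Across the 9 conditions, the means of log2(normalised count + 1) of Zic2 and Zic5 correlated at r = 0.97, those of Otx2 and Fgf5 at 0.91, and those of Pou3f1 and Sall2 at 0.86. Tcf15 and Sall2 were at −0.39. These values describe 9 points that share libraries and depth, and they carry no test. Among 11989 other genes with a mean of at least 50, the profiles most like that of Otx2 were those of Slc7a3, an amino acid transporter (r = 0.97), Pir (0.97), Pbdc1 (0.97), Usp14, a deubiquitinase (0.97), and Rars2, a mitochondrial arginyl-tRNA synthetase (0.96). With variance-stabilised counts in place of log2 counts, 4 of these genes stayed among those most like Otx2, and Slc7a3 ranked 6. Without the wild-type day 6 condition without cytokines, the r of all the genes named was between 0.91 and 0.94. Slc7a3 had a mean of 5548 in TKO EpiLCs and 299.9 in those aggregates.

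Of 14 other formative and primed epiblast genes, 10 fell and 2 rose from wild-type EpiLCs to day 2 without cytokines, with a median log2 fold change of −1.79, while the median of all genes was 0.02, and 15.7% of all genes fell and 18.6% rose. Tdgf1, the Nodal co-receptor, fell by 4.91 and Foxd3, a forkhead factor, by 4.28, and Sox3 (1.03) and Lin28b (0.80) rose. In TKO cells 3 of 14 fell in that step (8.52% of all genes), with a median of −0.48, led by the de novo methyltransferases Dnmt3a (−2.22) and Dnmt3b (−1.97). The change differed between the genotypes for 6 of 14 (12.3% of all genes). On day 6 without cytokines 10 of the 14 were higher and 2 lower in TKO than in wild-type aggregates (28.5% and 26.9% of all genes, median 3.10), with Tdgf1 higher by 9.35 and Utf1 by 8.92, and Sox3 lower by 3.49.

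All 11 naive pluripotency genes, which include Prdm14, Tbx3 and Klf4, rose from TKO EpiLCs to day 2 both without (10.1% of all genes rose, median 2.64) and with cytokines (7.88%, median 3.53), while in wild-type cells without cytokines 1 rose, Nanog by 2.16, and 2 fell, Nr0b1 by 3.72 and Zfp42 by 2.20. On that day all 11 were higher in TKO than in wild-type aggregates without cytokines (18% of all genes). Prdm14 is also among the 5 germ cell markers, with Prdm1, Tfap2c, Nanos3 and Dppa3. All 5 rose from TKO EpiLCs to day 2 with and without cytokines. All 11 naive genes were also higher in wild-type day 6 cells with cytokines than in wild-type EpiLCs, where 22.4% of all genes were higher. In EpiLCs 5 of the 11 were higher in TKO cells (7.57% of all genes), with Prdm14 (mean 44.6 against 1.88) and Klf5 (1317 against 220) the largest differences. Lower levels of Fgf5, Pou3f1 and Lef1 and higher levels of these genes were thus measured in the same TKO libraries on day 2.

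Among 17 relatives of the 8 genes by family, 13 were called in wild-type aggregates at day 6 without cytokines against EpiLCs, 8 of them higher, where 60.7% of all genes were called and 31.7% were higher. Pou3f2, a neural relative of Pou3f1, rose from a mean of 8.09 to 3962, and Zic4, listed at 0 in wild-type EpiLCs, was at a mean of 216. Fgf4 fell from 2647 to 5.89 and Tcf7, a relative of Lef1, from 1151 to 130. In TKO cells from EpiLCs to day 2 without cytokines 3 of 17 were called, a share close to the 18.7% of all genes, among them Crx, an Otx family gene (1.65 to 72.6), and Sall3 (41.1 to 440). Crx was lower with cytokines than without them in TKO aggregates on day 2 (1.86 against 72.6) and on day 6 (7.42 against 109).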

How the data were processed

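Total RNA from 18 cultures was depleted of rRNA and sequenced by the authors, who made a directional library of each. Per the submitters' processing notes and the study's methods, reads were trimmed with Trim Galore 0.5.0 and cutadapt 1.16, aligned with STAR 2.7.1a to mm10 (GRCm38) and counted over RefGene exons with featureCounts (Subread 1.5.2). The deposited values are raw counts per gene. The command lines kept at the end of the table set no strand option, so sense and antisense reads were pooled. These command lines hold no counts and were left out.

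Counts were analysed in R 4.3.3 with edgeR 4.0.16. Genes were filtered by filterByExpr, libraries scaled by TMM, and 9 condition means fitted in 1 quasi-likelihood model, with contrasts and Benjamini-Hochberg adjustment across the 16582 genes that passed. An adjusted p below 0.05 made a call. Standard errors are the size of the log2 difference over the root of its F statistic, and 95% intervals from the t quantile. Levels are counts divided by DESeq2 (1.42.0) size factors. The fit was tested on simulated data for the EpiLC genotype comparison only, with the same spread given to every gene. The disagreement of the wild-type day 6 pair without cytokines was not simulated.

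The genes and lists were chosen with earlier results of these data known. All 8 genes are named, and from each list at most the 2 highest and 2 lowest log2 fold changes among called genes of a comparison. Alternatives were the DESeq2 Wald test, other filters and scalings, removal of Rn45s, the replicate number as a block, fits of the compared libraries alone, stricter thresholds and leaving out each library in turn. A fit without both wild-type day 6 libraries without cytokines was added after the data had been seen.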

Additional observations from a re-analysis of the deposited data

Results flagged for a closer look

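For 2 of the 8 genes the change from EpiLCs to day 2 without cytokines differed between the genotypes by the interaction term (TKO change minus wild-type change, log2). Of all genes tested, 12.3% were called for this term. It was 3.09 ± 0.64 for Tcf15 (adjusted p = 0.00539) and −1.76 ± 0.39 for Sall2 (adjusted p = 0.00777). For 5 of the 8 genes the difference between cultures with and without cytokines on day 6 differed between the genotypes in the same sense, where 42.9% of all genes did. The terms were −8.27 ± 1.08 for Fgf5 (adjusted p = 2.46e-05), 1.88 ± 0.45 for Pou3f1 (adjusted p = 0.00382), −4.09 ± 0.64 for Lef1 (adjusted p = 0.000121), −1.82 ± 0.57 for Tcf15 (adjusted p = 0.0184) and 4.31 ± 0.42 for Sall2 (adjusted p = 1.48e-06). The term for Fgf5 rests on 7 reads in 1 wild-type library and 0 in the other, and was −12.5 without the library that held them. By a legend of the study, wild-type cells with cytokines were the only sorted group.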

How the results depend on the processing

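Counts of called genes among the 8 stayed within 1.5 times of the reported count under the DESeq2 Wald test, a mean CPM filter of 1, RLE factors, removal of Rn45s and a log2 limit of 1. Over all genes, DESeq2 called 245 in place of 79 for TKO day 6 against day 2 without cytokines, and 1513 in place of 749 and 1569 in place of 931 for cytokines in TKO cells on days 2 and 6. With no filter on low counts 230 were called for TKO day 6 against day 2 without cytokines and 1417 for cytokines in TKO cells on day 2, and library size scaling gave 2693 in place of 1783 for EpiLC genotype, 5024 in place of 3095 for TKO day 2 without cytokines against EpiLCs, and 2772 and 3247 for cytokines in TKO cells on days 2 and 6. The replicate block, tried although same-numbered libraries deviated together in only 4 of 14 comparisons (r from −0.16 to 0.18), also kept every count of the 8 within 1.5 times. The block added calls for Zic2 (wild-type day 6 without cytokines against EpiLCs, adjusted p = 0.0467) and Tcf15 (TKO day 2 with cytokines against EpiLCs, adjusted p = 0.0423) and ended those of Lef1 for cytokines in wild-type cells (adjusted p = 0.0551) and in TKO cells on day 2 (adjusted p = 0.0552). Fits of only the compared libraries called 1 gene for EpiLC genotype, 7 for wild-type day 2 against EpiLCs, 7 for TKO day 2 with cytokines against EpiLCs, 2 for TKO day 6 against day 2 without cytokines, 8 for TKO day 2 with against without cytokines, and 5 and 4 for genotype on day 2 and on day 6 with cytokines. The share of all genes called was not recorded for these fits, for the stricter thresholds or with 1 library left out. Counts of the 8 genes in those settings therefore cannot be set against such a share. The fit lacking the wild-type day 6 pair called 4 for EpiLC genotype (18.2% of all genes), 7 for wild-type day 2 (42.2%) and 8 for TKO day 2 with cytokines against EpiLCs (21.4%). It called 7 for cytokines in TKO cells on day 2 (14.7% of all genes) and 5 for genotype on day 6 with cytokines (27.4%). An adjusted p below 0.01 left 0 genes for EpiLC genotype, 3 for TKO day 2 without cytokines against EpiLCs, 1 for TKO day 6 against day 2 with cytokines and 0 for cytokines in TKO cells on day 2, and a log2 limit of 2 left 0, 2, 1 and 0 there, 1 for wild-type day 2 against EpiLCs, 2 for cytokines in TKO cells on day 6, 2 for genotype on day 6 without cytokines, and 1 and 3 for the interactions at day 2 and day 6. Without a filter on low counts 1 gene was called for TKO day 6 against day 2 without cytokines and 5 for cytokines in TKO cells on day 2, where library size scaling also called 5. That scaling brought the median of all genes to as far as 0.73 (log2), and higher genes then made up 93.1% of calls in place of 70.4% for EpiLC genotype, 86.1% in place of 54.2%, 75.4% in place of 52.3% and 78.2% in place of 55.2% for wild-type day 2, day 6 without and day 6 with cytokines against EpiLCs, 38.4% in place of 50.9% for cytokines in wild-type cells, 94.6% in place of 54.3% for TKO day 2 without cytokines against EpiLCs, 3.61% in place of 45.4% and 3.36% in place of 45.6% for cytokines in TKO cells on days 2 and 6, and 72.9% in place of 54.8% for genotype on day 2. Leaving out 1 library gave 0 to 2 calls for EpiLC genotype, 4 to 8 for cytokines in wild-type cells, 1 to 4 for TKO day 2 without cytokines against EpiLCs, 0 to 3 for TKO day 6 against day 2 with cytokines, 0 to 2 and 2 to 3 for cytokines in TKO cells on days 2 and 6, 4 to 8 for genotype on day 6 without cytokines and 4 to 8 for the day 6 interaction. Differences that turned sign under DESeq2, RLE factors or library size scaling were those of Zic2 for wild-type day 2 against EpiLCs (−0.025 with DESeq2 and with RLE factors), Tcf15 for wild-type day 6 with cytokines against EpiLCs (0.23), Otx2 for cytokines in wild-type cells (−0.17), and the interactions of Fgf5 at day 2 (−0.045) and Zic5 at day 6 (−0.094). With 1 library left out, signs turned within −0.30 to 0.38 for Fgf5, −0.11 to 0.32 for Lef1 and −0.12 to 0.49 for Sall2 (EpiLC genotype), −0.059 to 0.12 for Zic2 (wild-type day 2), −0.21 to 0.37 for Sall2 (wild-type day 6 without cytokines), −0.63 to 0.43 for Tcf15 (wild-type day 6 with cytokines), −0.89 to 4.94 for Otx2, −1.59 to 1.86 for Zic2 and −1.75 to 2.28 for Zic5 (cytokines in wild-type cells), −0.00096 to 0.10 for Zic5 (TKO day 2 without cytokines), −0.22 to 0.032 for Otx2 (TKO day 6 without cytokines), −0.11 to 0.62 for Zic5 and −0.0091 to 0.63 for Tcf15 (TKO day 6 with cytokines), −0.12 to 3.33 for Zic2 and −0.31 to 3.73 for Zic5 (genotype, day 6 without cytokines), −0.78 to 0.20 for Otx2 and −0.28 to 0.40 for Fgf5 (day 2 interaction), and −5.60 to 0.23 for Otx2, −2.76 to 0.68 for Zic2 and −2.97 to 1.07 for Zic5 (day 6 interaction). The cause of these changes was not tested. Over all alternatives, 1521 log2 differences kept direction and side of the threshold, 74 gained a call, 65 lost one and 36 turned sign. With TMM factors or library size scaling, 103 levels moved by less than the spread of their pair and 41 by more.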
